A study of Mus musculus with 11 samples.

Results

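The mouse interferon regulatory factor genes Irf1, Irf2, Irf3, Irf4, Irf5, Irf7, Irf8 and Irf9 and the interferon beta gene Ifnb1 were followed through 11 samples of BV2 cells, an immortalized line of murine microglia whose strain is labelled C57BL/6. These 9 genes were taken by symbol from the 36529 genes listed in each sample, and all 9 had a row. In one experiment, 3 samples received nApoE4, the amino-terminal fragment of apolipoprotein E4 that spans residues 1 to 151, and 3 samples were its untreated controls (ControlA). In the other, 2 samples received nApoE3, the same stretch of apolipoprotein E3, and 3 samples were its untreated controls (ControlB). Each fragment was given at 25 μg/ml for 5 h, and total RNA was sequenced. The labels name PBS as the vehicle, whereas the study's methods describe conditioned media for the untreated cells. Because each fragment was run only with its own controls, a difference between fragments cannot be told apart from one between experiments. The study calls its transcriptome measurements independent but does not say whether replicates were separate cultures, so every p-value here measures only the spread between these samples, which may be technical. BV2 is a single cell line carrying viral oncogenes, the fragments were recombinant proteins added to the medium, and no heat-treated or unrelated protein was among the samples analysed here.

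Interferon regulatory factors (IRFs) are transcription factors that share an amino-terminal DNA-binding domain which reads GAAA repeats. IRF3, IRF5 and IRF7 wait in the cytoplasm until kinases below Toll-like receptors and nucleic acid sensors phosphorylate them, and IRF3 and IRF7 then switch on Ifnb1 together with NF-kB and AP-1. The secreted interferon beta binds its receptor and builds ISGF3 from STAT proteins and IRF9, and ISGF3 in turn raises Irf7, while IRF8 with its partner PU.1 is a factor of microglial identity.

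With nApoE4, Irf1, Irf7, Irf9 and Ifnb1 rose and Irf8 fell, which is 5 of the 9 genes where 57.2% of all 14240 genes tested changed. With nApoE3, these genes moved in the same directions, Irf2 and Irf5 also rose by less, and Irf3 and Irf4 fell, which is all 9 where 67.7% of 14817 genes changed. The Irf3 call was lost under 6 of 11 alternatives. Ifnb1 passed the filter on low counts only through the treated samples, so it could be called only upward. Irf1 rose more with nApoE4, whereas Irf7 rose more with nApoE3. No other interferon gene exceeded 2 counts in any sample.

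The promoters of 4 of these genes are shown, those of Ifnb1, Irf1 and Irf7 because they rose most with both fragments and that of Irf8 because it fell most. Windows of 300 bases, 250 before and 50 from the annotated start, were taken from RefSeq for GRCm38.p6, and all 9 genes matched an entry, with 12 windows in all. For Irf5 and Irf7 the only window was placed at a start inside the gene span given below, not at its outer end. Each window is written 5′ to 3′ on the strand of its gene, and capitals mark matches on either strand to an IRF core (AANNGAAA), an ISRE core (GAAANNGAAA, which always contains an IRF core), a STAT site of the GAS type (TTCNNNGAA, which reads the same on both strands) or the NF-kB consensus. The Ifnb1 window lies on the minus strand at chr4:88522745-88523044, the first Irf1 window on the plus strand at chr11:53769764-53770063, the first Irf8 window on the plus strand at chr8:120736108-120736407 and the Irf7 window on the minus strand at chr7:141266375-141266674.
Ifnb1: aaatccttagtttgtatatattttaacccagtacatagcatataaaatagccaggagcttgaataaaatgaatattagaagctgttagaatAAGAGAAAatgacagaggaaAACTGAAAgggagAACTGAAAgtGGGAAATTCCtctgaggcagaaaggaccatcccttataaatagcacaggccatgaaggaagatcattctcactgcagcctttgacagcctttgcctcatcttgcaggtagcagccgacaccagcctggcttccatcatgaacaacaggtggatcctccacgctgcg
Irf1: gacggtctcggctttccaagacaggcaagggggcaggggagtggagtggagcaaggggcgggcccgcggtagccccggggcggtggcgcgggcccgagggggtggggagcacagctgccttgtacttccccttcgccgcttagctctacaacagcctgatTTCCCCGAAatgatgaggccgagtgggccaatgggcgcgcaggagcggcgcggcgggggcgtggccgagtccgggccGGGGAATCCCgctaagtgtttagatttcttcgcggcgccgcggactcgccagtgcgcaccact
Irf8: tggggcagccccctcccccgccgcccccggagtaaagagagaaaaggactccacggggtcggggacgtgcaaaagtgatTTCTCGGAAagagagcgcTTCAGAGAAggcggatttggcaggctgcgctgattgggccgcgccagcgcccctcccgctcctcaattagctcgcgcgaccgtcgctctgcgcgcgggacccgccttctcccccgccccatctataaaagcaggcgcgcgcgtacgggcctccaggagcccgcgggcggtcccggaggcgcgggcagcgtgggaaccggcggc
Irf7: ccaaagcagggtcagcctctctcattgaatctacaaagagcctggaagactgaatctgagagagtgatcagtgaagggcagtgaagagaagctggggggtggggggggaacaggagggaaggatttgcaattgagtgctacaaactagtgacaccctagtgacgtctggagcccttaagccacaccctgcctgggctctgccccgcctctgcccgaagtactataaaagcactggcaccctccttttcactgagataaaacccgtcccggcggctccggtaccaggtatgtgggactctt
The Ifnb1 window held 3 IRF cores, beginning 159, 139 and 126 bases before the start, and an NF-kB match 116 bases before it. The Irf1 window held a GAS match 90 bases and an NF-kB match 13 bases before the start. In the Irf8 window there were 2 GAS matches, 171 and 153 bases before the start, and in the Irf7 window none of the 4 patterns was matched. Irf2, whose window is not printed, held 2 IRF cores, an ISRE core, a GAS match and an NF-kB match. The windows of Irf3, Irf4, Irf5 and Irf9 held no match. Among 32851 promoter windows of this length, 23.9% held an IRF core, 3.44% an ISRE core, 8.3% a GAS match and 8.46% an NF-kB match. A match describes the letters only.

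RefSeq places the 9 genes on 7 chromosomes of GRCm38.p6. Irf1 spans chr11:53770014-53778374 and Irf9 spans chr14:55603985-55610030. Irf7 and Irf3 lie on chromosome 7, at chr7:141263183-141266499 and chr7:44997648-45002848. Irf2 and Irf8 lie on chromosome 8, at chr8:46739745-46847458 and chr8:120736358-120756694. Irf4 spans chr13:30749233-30766981, Irf5 spans chr6:29526130-29541869 and Ifnb1 spans chr4:88522025-88522794. For 7 of the 9 no other annotated gene overlaps the span. Irf5 shares 1043 bases, 6.63% of its span, with Tnpo3, and Irf2 shares 7959 bases, 7.39%, with the non-coding genes Gm31172 and Gm39170, so the counts of these 2 genes could have lost reads to ambiguity.

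Between 39732710 and 44162511 reads per sample were counted on genes in the nApoE4 experiment and between 55809688 and 69768666 in the nApoE3 experiment. ControlA replicate 2 stood apart from its group, with a mean chi-square per gene of 25.8 and 47.9 against the other 2 ControlA samples, which gave 7.85 against each other. Of 12 microglial markers, 11 were counted above 3 reads in some sample, and their summed level was 2470 to 3600 CPM, read counts scaled to library size, over the 11 samples. The twelfth, P2ry12, was at 0 in every sample and lies within another gene, Med12l. Among the others, levels were highest for Cd68 and Csf1r, while Aif1 had at most 10 reads and Cx3cr1 had 3 to 43. Tmem119 went from 111, 125 and 142 reads in ControlA to 58, 52 and 66 with nApoE4. In the nApoE3 experiment it went from 646, 526 and 452 reads to 107 and 80, whereas Ptprc went up in both experiments. Defining markers of plasmacytoid dendritic cells and astrocytes, Siglech, Gfap and Aqp4, reached at most 10, 4 and 1 counts. Ccr9, another plasmacytoid dendritic cell marker, went from 1, 3 and 5 reads in ControlA to 38, 36 and 51 with nApoE4, and from 4, 0 and 1 in ControlB to 33 and 28 with nApoE3. The summed level of the 5 astrocyte markers was 1.07 to 1.39 CPM in the controls and 4.36 to 7.02 CPM with the fragments, most of it Slc1a2, a glutamate transporter. That of the 5 plasmacytoid dendritic cell markers was 139 to 172 CPM in the controls and 190 to 307 CPM with the fragments. Its gene Bst2, which is itself inducible by interferon, went from between 2814 and 3699 reads in ControlA to between 4504 and 4772 with nApoE4. In the nApoE3 experiment Bst2 went from between 4145 and 4863 reads to 13020 and 11478. Of the same list, Tcf4 had 1307 to 3928 reads and Cox6a2 1428 to 2886 over the 11 samples. Neuronal markers summed to 1.97 to 2.51 CPM in ControlA and 5.32 to 6.39 with nApoE4, mostly Tubb3, and to 1.15 to 1.52 in ControlB and 1.49 to 1.51 with nApoE3. Lymphocyte markers summed to 0.268 to 0.471 CPM in ControlA and 0.479 to 0.890 with nApoE4, and to 0.319 to 0.439 in ControlB and 0.739 to 0.921 with nApoE3. Oligodendrocyte markers summed to 11.4 to 14.2 CPM in ControlA and 9.33 to 11.8 with nApoE4, and to 24.1 to 24.6 in ControlB and 22.2 to 25.4 with nApoE3. The part of these markers in the results was not tested. Trem2, a microglial receptor gene, had 2578 reads in ControlA replicate 1 and at most 220 in the other samples.

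**Figure D1:**
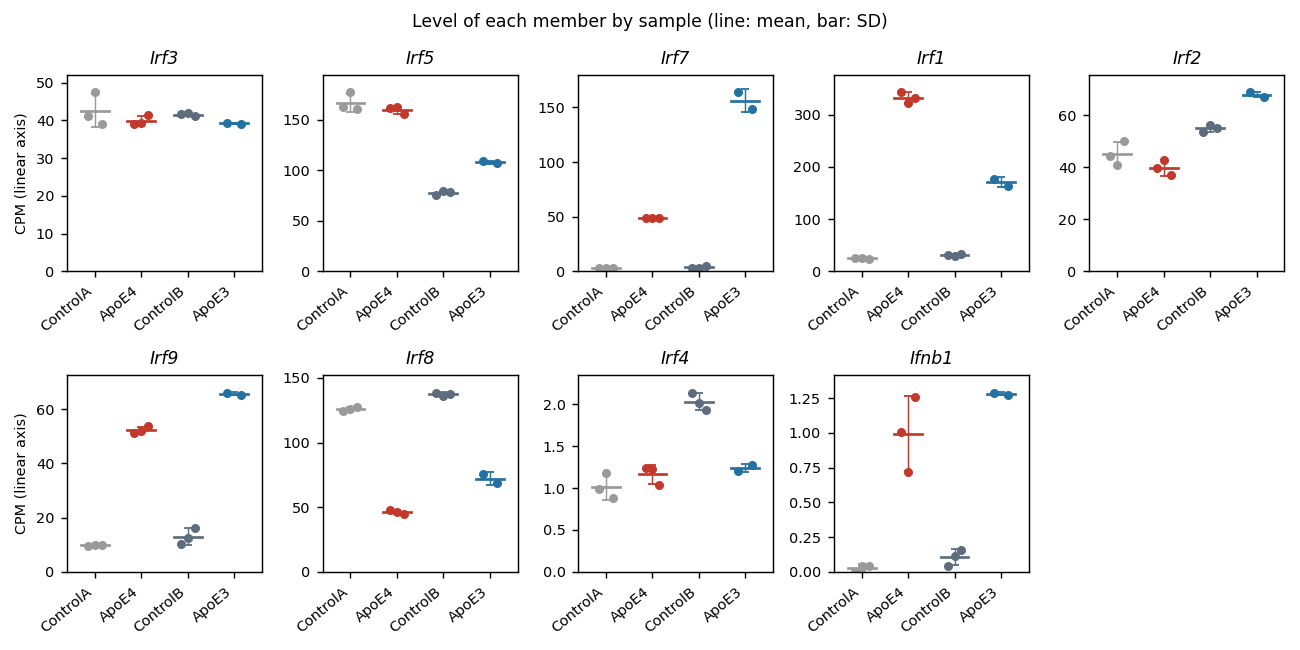
Level of each of the 9 genes in CPM on a linear axis from 0, by group, with each point a sample, the horizontal line the mean and the bar the SD (n = 3, 3, 3 and 2). Irf1, Irf7, Irf9 and Ifnb1 stood higher in every treated sample than in any control, Irf8 stood lower, and Irf5 differed between the 2 control groups.

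Ifnb1 encodes the interferon that IRF3 and IRF7 induce first. It was nearly silent in untreated cells. The 3 ControlA samples held 0, 2 and 2 reads, and the 3 nApoE4 samples held 43, 30 and 50. The ControlB samples held 3, 7 and 9 reads, and the nApoE3 samples held 75 and 72. Treated and control samples did not overlap in either experiment, although the treated level was still only 0.995 ± 0.269 CPM (SD, n = 3) with nApoE4 and 1.28 ± 0.00972 CPM (SD, n = 2) with nApoE3. The rise was 4.93 on the log2 scale with nApoE4 (95% interval 3.80 to 6.07, edgeR adjusted p = 2.43e-05) and 3.63 with nApoE3 (2.88 to 4.37, edgeR adjusted p = 1.11e-06). Ifnb1 passed the filter on low counts only through the treated samples in both experiments, so it could be called only as a rise. Its p-values are therefore a description. With 4 control reads in all, the nApoE4 fold rests on few counts. The ratio of pooled counts was 33.2, with an exact counting interval of 12.6 to 124, and against a level of 3 reads per control library the treated mean was 14.8 times as high. For nApoE3 the pooled ratio was 12.7 (7.88 to 21.8). The 2 log2 changes differed by 1.32 with an interval of −0.43 to 3.07, so a difference between the fragments was not detectable at this depth (edgeR interaction, adjusted p = 0.255).

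The other interferon genes were counted at or near 0. Of 20 genes for interferons alpha, epsilon, kappa, zeta, gamma and lambda, 17 had no read in any of the 11 samples. The other 3, Ifnab, Ifnz and Ifnl3, had at most 2 reads in any sample. At these depths, 3 reads correspond to 0.043 to 0.0755 CPM. The interferon alpha genes are close copies of each other, so reads shared between copies could not be counted on either, and a 0 limits the uniquely counted reads rather than the transcripts. Ifnk also lies within another gene, Mob3b.

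IRF3 is the constitutive, kinase-activated factor of the early response, and Irf3 hardly moved. Its level was 41.3, 47.4 and 39.1 CPM in ControlA and 39.0, 39.5 and 41.4 CPM with nApoE4. It was 41.6, 42.0 and 41.1 CPM in ControlB and 39.3 and 39.2 CPM with nApoE3. The nApoE4 samples overlapped their controls (log2 change −0.09, 95% interval −0.26 to 0.08, edgeR adjusted p = 0.355). The nApoE3 samples lay just below theirs, a change of −0.09 on the log2 scale that passed the threshold (−0.16 to −0.02, edgeR adjusted p = 0.028) but was lost without either sample of nApoE3, without ControlB replicate 1 or 2, in DESeq2 and in a fit of all samples together, with adjusted p-values of 0.0591 to 0.333 there. The 2 changes differed by −0.01 (−0.21 to 0.19). Phosphorylation, which activates IRF3, is not seen in RNA counts.

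Irf5 encodes the factor that drives inflammatory cytokine genes below Toll-like receptors, and Irf5 differed more between the control groups than with either fragment. ControlA held 162, 177 and 161 CPM and ControlB held 76.1, 79.8 and 78.2 CPM. ControlB was lower by a log2 change of −1.11 (95% interval −1.23 to −0.99, edgeR adjusted p = 1.15e-06). With nApoE4, Irf5 was at 161, 163 and 156 CPM, overlapping ControlA (log2 change −0.06, −0.19 to 0.08, edgeR adjusted p = 0.453). With nApoE3 it was at 109 and 107 CPM, above every ControlB sample by 0.46 on the log2 scale (0.40 to 0.53, edgeR adjusted p = 2.87e-08). The 2 changes differed by −0.53 (−0.68 to −0.38, edgeR interaction, adjusted p = 0.000103), from control levels that were themselves far apart.

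Irf7 encodes the inducible partner of IRF3 that amplifies interferon production, and it showed the highest fold changes among the 8 IRF genes in both experiments. It went from 3.59, 2.85 and 3.51 CPM in ControlA to 49.2, 49.3 and 49.1 CPM with nApoE4. It went from 3.27, 3.34 and 5.14 CPM in ControlB to 164 and 149 CPM with nApoE3. No treated sample came near a control. The rise was 14.9-fold with nApoE4 (log2 change 3.89 ± 0.0893 SE, edgeR adjusted p = 1.15e-09) and 40.2-fold with nApoE3 (5.33 ± 0.0948 SE, edgeR adjusted p = 2.03e-13). The nApoE3 change exceeded the nApoE4 change by a factor of 2.72, a difference of −1.44 written as nApoE4 minus nApoE3 (95% interval −1.87 to −1.02, edgeR interaction, adjusted p = 0.000133). The 2 control groups overlapped (log2 difference 0.22, −0.24 to 0.67, edgeR adjusted p = 0.348).

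Irf1 encodes an interferon- and cytokine-inducible activator of genes for antigen presentation and antimicrobial defence, and it was the gene of the family that nApoE4 raised to the highest level. ControlA held 26.3, 26.1 and 24.1 CPM and the nApoE4 samples held 342, 322 and 332 CPM. ControlB held 31.4, 29.0 and 33.7 CPM and the nApoE3 samples held 177 and 164 CPM. Groups were far apart in both experiments. Irf1 rose 13.1-fold with nApoE4 (log2 change 3.71 ± 0.0682 SE, edgeR adjusted p = 4.08e-10) and 5.42-fold with nApoE3 (2.44 ± 0.0495 SE, edgeR adjusted p = 6.28e-13). Opposite to Irf7, the nApoE4 change was the greater, by 1.26 on the log2 scale (95% interval 1.06 to 1.46, edgeR interaction, adjusted p = 6.52e-07). ControlB was 0.28 higher than ControlA at the start (0.12 to 0.44, edgeR adjusted p = 0.00628).

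IRF2 binds the same sites as IRF1 and is known mainly as its antagonist. Irf2 stayed within 36.9 to 50.2 CPM in the nApoE4 experiment. ControlA held 44.2, 41.0 and 50.2 CPM and the nApoE4 samples 39.7, 42.8 and 36.9 CPM, with overlap. The log2 change was −0.18 (95% interval −0.37 to 0.02, edgeR adjusted p = 0.113). Without ControlA replicate 2 the change was −0.25 and passed the threshold (edgeR adjusted p = 0.0123), as it did in a fit of all samples (edgeR adjusted p = 0.0443). In the nApoE3 experiment ControlB held 53.4, 56.2 and 55.2 CPM and the treated samples 68.8 and 67.2 CPM. That rise was 0.30 on the log2 scale (0.23 to 0.37, edgeR adjusted p = 4.05e-06). The 2 changes differed by −0.49 (−0.72 to −0.26, edgeR interaction, adjusted p = 0.00381), a call that was lost with the replicate number as a block (edgeR adjusted p = 0.0601).

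IRF9 is the DNA-binding subunit of ISGF3, and Irf9 rose by nearly the same factor with either fragment. ControlA held 9.53, 9.90 and 10.0 CPM and the nApoE4 samples held 51.2, 52.0 and 53.6 CPM. ControlB held 10.3, 12.3 and 16.2 CPM, more scattered than ControlA, and the nApoE3 samples held 66.1 and 65.3 CPM. The rise was 5.34-fold with nApoE4 (log2 change 2.42 ± 0.0604 SE, edgeR adjusted p = 1.71e-09) and 5.10-fold with nApoE3 (2.35 ± 0.109 SE, edgeR adjusted p = 1.43e-09). The difference of 0.06 had an interval of −0.31 to 0.43 (edgeR interaction, adjusted p = 0.827).

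IRF8 is the lineage factor of microglia and other myeloid cells, and Irf8 was the only IRF gene that fell more than 2-fold with a fragment. ControlA held 125, 126 and 128 CPM and the nApoE4 samples held 47.8, 46.3 and 44.8 CPM. ControlB held 138, 136 and 138 CPM and the nApoE3 samples held 75.4 and 68.4 CPM. Every treated sample lay below every control. With nApoE4, Irf8 fell by 1.44 on the log2 scale (95% interval −1.56 to −1.31, edgeR adjusted p = 2.46e-08), and with nApoE3 it fell by 0.94 (−1.02 to −0.86, edgeR adjusted p = 2.74e-10). The fall was greater with nApoE4 by −0.51 (−0.66 to −0.36, edgeR interaction, adjusted p = 0.000124). As these are bulk samples, fewer cells with Irf8 transcripts and less of the transcript per cell cannot be told apart.

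IRF4 is the close relative of IRF8 that is best known from lymphocytes and alternatively activated macrophages. Irf4 was scarce in BV2 cells. ControlA held 42, 53 and 41 reads and the nApoE4 samples 53, 51 and 41, with overlap (log2 change 0.21, 95% interval −0.24 to 0.65, edgeR adjusted p = 0.399). ControlB held 151, 125 and 109 reads, or 1.93 to 2.14 CPM, and the nApoE3 samples 70 and 72 reads, or 1.20 and 1.27 CPM. With nApoE3 it fell by 0.72 on the log2 scale (−1.06 to −0.38, edgeR adjusted p = 0.00141), to about the level seen throughout the nApoE4 experiment. ControlB stood 0.98 above ControlA (0.63 to 1.34, edgeR adjusted p = 0.000596), and the 2 changes differed by 0.91 (0.41 to 1.42, edgeR interaction, adjusted p = 0.0107), a call that was lost without ApoE3 replicate 1 (0.87, edgeR adjusted p = 0.0518).

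**Figure D2:**
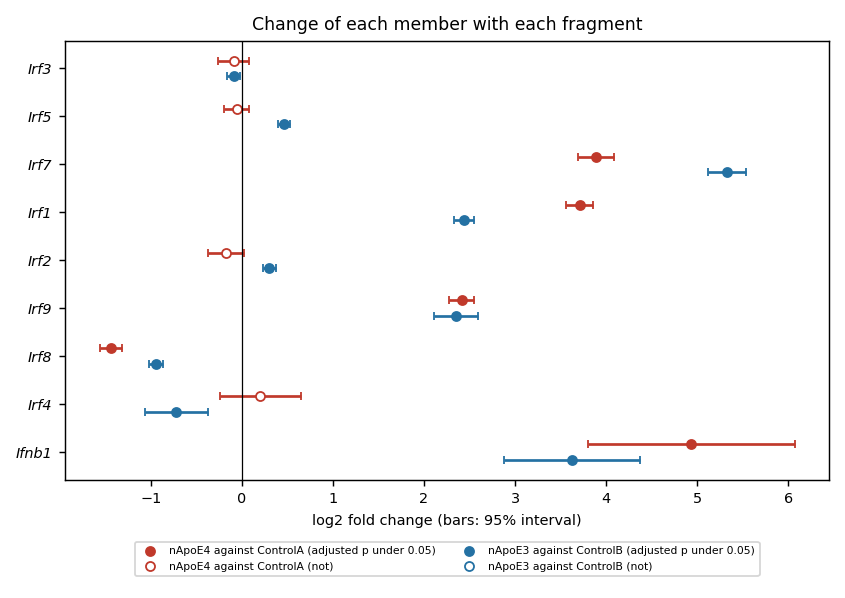
Log2 fold change of each gene with nApoE4 against ControlA (red, upper) and nApoE3 against ControlB (blue, lower), with 95% intervals and filled points for an adjusted p under 0.05. Irf1 lay further right with nApoE4 (3.71 against 2.44), Irf7 further right with nApoE3 (5.33 against 3.89), and Irf9 at nearly the same place with both.

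Counted over the family, 4 genes rose and 1 fell with nApoE4, where 57.2% of the 14240 genes tested were called, 28.6% upward and 28.6% downward. With nApoE3, 6 rose and 3 fell, where 67.7% of 14817 genes were called, 33.1% upward and 34.6% downward. Ifnb1, among the risers with each fragment, passed the filter on low counts only through the treated samples. With a fold change above 2 also asked for, 5 of the 9 genes remained with nApoE4 and 4 with nApoE3, where 17.7% and 16.2% of all genes did. Treated and control samples did not overlap for 5 genes with nApoE4, against 63.6% of all genes, and for 9 with nApoE3, against 77.6%. The median log2 change of the 9 was 0.21 with nApoE4 and 0.46 with nApoE3, beside 0.0013 and −0.0026 over all genes tested. The log2 change differed between the fragments for 6 of the 9 genes, with Irf1 and Irf4 higher for nApoE4 and Irf2, Irf5, Irf7 and Irf8 lower, against 28.3% of 15287 genes. Between the control groups, 5 of 8 genes tested differed, against 69.3% of 14249, so starting levels differed between the experiments for this family as for most genes.

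Levels were compared between genes per kilobase of the longest coding transcript in the GENCODE annotation of this build. In ControlA, Irf5 stood first at 74.4 ± 3.94 CPM per kilobase (SD, n = 3) and Irf8 next at 44.3 ± 0.592, followed by Irf3 at 21.0 and Irf2 at 18.1, which overlapped each other. Irf1 at 11.9, Irf9 at 3.32 and Irf7 at 1.48 came after, and Irf4 at 0.213 and Ifnb1 at 0.0389 were last. ControlB kept this order except that Irf8 at 48.3 stood above Irf5 at 34.8 and Irf2 above Irf3. With nApoE4, Irf1 led at 155 ± 4.82, ahead of Irf5 at 71.3, and Irf8 dropped to sixth at 16.3, no longer separable from Irf2. With nApoE3, Irf1 at 79.8 ± 4.29 and Irf7 at 69.8 ± 4.75 (SD, n = 2) led, ahead of Irf5 at 48.2.

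The composition of the family shifted accordingly. The 8 IRF genes summed to 175 ± 4.57 CPM per kilobase in ControlA and 318 ± 4.51 with nApoE4 (SD, n = 3 each), and to 147 ± 2.53 in ControlB (n = 3) and 292 ± 12.1 with nApoE3 (n = 2). Irf1 made up 6.83% of the sum in ControlA and 48.8% with nApoE4, and 10.0% in ControlB and 27.3% with nApoE3. Irf7 went from 0.852% to 6.90% with nApoE4 and from 1.19% to 23.9% with nApoE3. Irf8 went from 25.3% to 5.10% and from 32.9% to 8.64%. These shares are measurements of RNA and depend on the transcript lengths chosen. With the union of all annotated exons as the length, Irf5 held 34.6% and Irf8 25.1% of the ControlB sum, in the reverse of their order above.

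**Figure D3:**
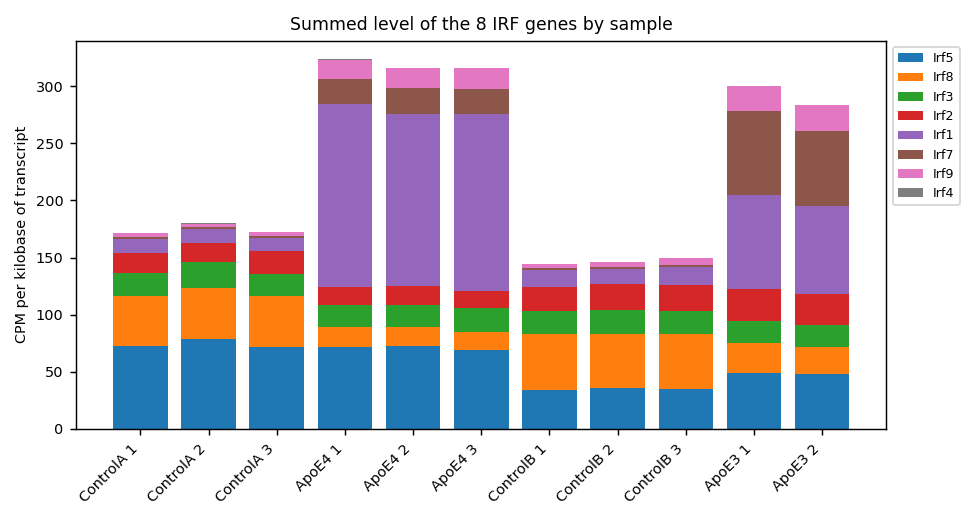
Stacked level of the 8 IRF genes in each of the 11 samples, in CPM per kilobase of the longest coding transcript on a linear axis from 0. Control columns reach 145 to 179.9 and are mostly Irf5 and Irf8, nApoE4 columns reach 316 to 324 with Irf1 as the tallest block, and nApoE3 columns reach 283 to 301 with Irf1 and Irf7.

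Above the IRFs stand the sensors, adaptors and kinases that activate IRF3, IRF5 and IRF7. Of 25 such genes, 16 rose and 6 fell with nApoE4, and 16 rose and 8 fell with nApoE3, with a median log2 change of 0.54 and 0.52. That is 88% and 96% called, beside 57.2% and 67.7% of all genes tested. With nApoE4, Zbp1 passed the filter on low counts only through the treated samples, so that it had to rise. Tlr8 passed there only through the controls, so that it had to fall. Asking for at least 10 counts in every sample called 20 of 23 of these genes with nApoE4, beside 7450 of 12917 genes. Ikbke, which encodes the inducible IRF3 kinase IKK epsilon, went from 11.95 ± 1.66 to 257 ± 12.7 CPM with nApoE4 (SD, n = 3 each), a log2 change of 4.43 ± 0.107 SE (edgeR adjusted p = 1.46e-09). With nApoE3 it went from 16.7 to 135 CPM, a change of 3.01, and the difference of 1.41 between the fragments passed the test (edgeR interaction, adjusted p = 2.59e-06). Tbk1, its constitutive counterpart, rose by 0.79 and 0.87, Ticam1, the adaptor of Toll-like receptor 3 and 4 signals to IRF3, by 1.28 and 1.36, and Myd88, the adaptor that leads to IRF5 and IRF7, by 1.09 and 1.12, all with both fragments. The adaptors of the cytoplasmic nucleic acid sensors went down with both. Mavs fell by 0.33 with nApoE4 and 0.62 with nApoE3, and Tmem173, which encodes STING, fell by 0.82 and 0.36. The log2 change was higher for nApoE4 in 4 of the 25 and lower in 9, against 28.3% of all genes differing either way.

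Below Ifnb1 stand the receptor and the partners of IRF9. These were listed together with the interferon gamma receptor genes Ifngr1 and Ifngr2 and the kinase gene Jak2, which do not belong to the interferon beta receptor. Of the 8 genes on this list, 6 rose and 0 fell with nApoE4, and 7 rose and 1 fell with nApoE3. The medians were 0.67 and 0.65. Ifngr2 and Jak2 were among the risers with both fragments, and Ifngr1 was the gene that fell with nApoE3. That is 75% and 100% called, beside 57.2% and 67.7% of all genes. Stat2, which encodes a partner of IRF9 in ISGF3, went from 14.8 to 71.4 CPM with nApoE4 and from 13.9 to 84.9 CPM with nApoE3, rises of 4.84-fold and 6.11-fold. It rose more with nApoE3, by −0.35 as nApoE4 minus nApoE3 (edgeR interaction, adjusted p = 0.0139). The receptor chains Ifnar1 and Ifnar2 rose by 0.30 and 0.80 with nApoE4 and 0.18 and 0.42 with nApoE3. Of the receptor's kinases, Tyk2 rose by 1.44 and 1.16, and Jak1 was at 0.02 with nApoE4 (edgeR adjusted p = 0.801) and rose by 0.20 with nApoE3.

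Among 13 tested genes of factors and coactivators that act beside IRFs at DNA, 7 rose and 2 fell with nApoE4, and 8 rose and 1 fell with nApoE3, with medians of 0.91 and 0.71. The share called was 69.2% with each fragment, near the 67.7% of all genes with nApoE3 and beside 57.2% with nApoE4. Spi1, which encodes PU.1, the partner of IRF8 and IRF4, went up from 268 to 678 CPM with nApoE4 and from 214 to 433 CPM with nApoE3, log2 changes of 1.35 and 1.01, while Irf8 went down. Batf and Batf3, whose products pair with IRF4 and IRF8 at composite AP-1 sites, moved in opposite directions. Batf rose from 0.06 to 2.84 CPM and from 0.0556 to 3.61 CPM, and Batf3 fell by 1.77 and 1.05 on the log2 scale. Batf passed the filter on low counts only through the treated samples, so that it had to rise. The same held for Batf2, also on this list, with nApoE4. Of the factors that share the Ifnb1 enhancer with IRF3 and IRF7, Rela rose by 0.91 and 1.04 and Atf2 was at 0.13 and 0.06 without passing the test (edgeR adjusted p = 0.14 and 0.0936). Jun fell by 0.89 with nApoE4 but rose by 0.71 with nApoE3, a difference of −1.61 (edgeR interaction, adjusted p = 7.6e-09).

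The proteins that restrain IRFs or interferon signalling split into those that rose and those that fell. Of 16 genes tested with nApoE4, 7 rose and 5 fell, and of 17 with nApoE3, 8 rose and 7 fell, with medians of −0.08 and 0.05. That is 75% and 88.2% called, beside 57.2% and 67.7% of all genes. Nlrx1, at 0.213 CPM in ControlB and 0.0263 CPM with nApoE3, passed the filter on low counts there only through the controls, so that it had to fall. Tnfaip3, which encodes the ubiquitin-editing enzyme A20, rose by 3.71 with nApoE4 and 4.07 with nApoE3. Usp18, which blocks the interferon receptor and is itself an interferon target, went from 5.10 to 28.7 CPM with nApoE4 and from 5.41 to 95.6 CPM with nApoE3. Its nApoE3 change was the greater, with a difference of −1.65 (edgeR interaction, adjusted p = 2.7e-06), in the direction of Irf7. Socs1, an inhibitor of JAK kinases, rose by 3.35 and 3.05. The corepressors that bind IRF2 went down. Irf2bp2 fell by 1.64 and 0.96, Irf2bp1 by 0.48 and 0.51, and Irf2bpl by 0.82 and 0.38.

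Of 28 target genes with a row, 19 passed the filter on low counts with nApoE4, and these 19 rose. With nApoE3, 21 passed, of which 19 rose and 0 fell. That is 100% and 90.5% called, beside 57.2% and 67.7% of all genes, of which 28.6% and 33.1% upward. The median log2 changes of the targets were 3.81 and 4.27. Some targets passed only through the treated samples, so that they had to rise, and the counts are therefore a description. Among these were Isg15, Ifi44, Il27 and Il23a in both experiments, Ciita with nApoE4, and Cxcl9 and Nos2 with nApoE3. Psmb8 and Psmb9 did not pass with nApoE4, and were high in 1 ControlA library alone. Psmb8 was at 6.62, 0.134 and 0.0857 CPM in ControlA and at 0.140, 0.217 and 0.227 CPM with nApoE4. Psmb9 was at 1.996, 0.0446 and 0.0214 CPM in ControlA and at 0.0933, 0.0241 and 0.0504 CPM with nApoE4. Of the genes in these sentences, all but Isg15 were picked after their values were seen. Testing every gene with at least 1 count called 22 of 23 targets with nApoE4 and 20 of 23 with nApoE3. Of all genes, 8583 of 22898 and 10206 of 24738 were then called. Asking for at least 10 counts in every sample called 12 of 12 targets with nApoE4 and 12 of 13 with nApoE3. Of all genes, 7450 of 12917 and 9451 of 13289 were called under that filter. With the 2 genes in each experiment whose controls held at most 3 reads per library set to their ratio against 3 reads, the medians were 3.30 and 3.37. The other targets that passed only through the treated samples kept their fitted values, so these medians still rest partly on them. Gbp2, which encodes a guanylate-binding protein and is a classical IRF1 target, went from 1.43 to 304 CPM with nApoE4 and from 1.58 to 260 CPM with nApoE3, log2 changes of 7.74 and 7.37. Il12b, the shared subunit of interleukins 12 and 23, went from 0.0743 to 53.5 CPM and from 0.0801 to 17.7 CPM. Il12b also passed the filter only through the treated samples, with 0.0669 to 0.0887 CPM in the control samples, so its values rest on few control reads. Its difference of 1.68 between the fragments missed the threshold (edgeR interaction, adjusted p = 0.058). Isg15, the ubiquitin-like product of a prototype ISGF3 target, was low throughout, with 2 reads in all ControlA samples together and 71 with nApoE4, and 1 read in ControlB and 40 with nApoE3. The ratios were 38.3 (exact counting interval 10.2 to 323) and 65.9 (11.2 to 2670). Of 30 target genes, 2, Mx1 and Mx2, were not analysed here, and 5, among them Ifit1 and Cxcl10, had 0 reads in all 11 samples. Of these 5, 4 lie within the span of another annotated gene, and none of the 23 targets with reads does. Partial overlap of targets such as Isg15 with another gene, which could also lower counts, was not examined. The log2 change was higher for nApoE4 in 1 of 21 and lower in 7, which is 38.1% beside 28.3% of all genes.

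**Figure D4:**
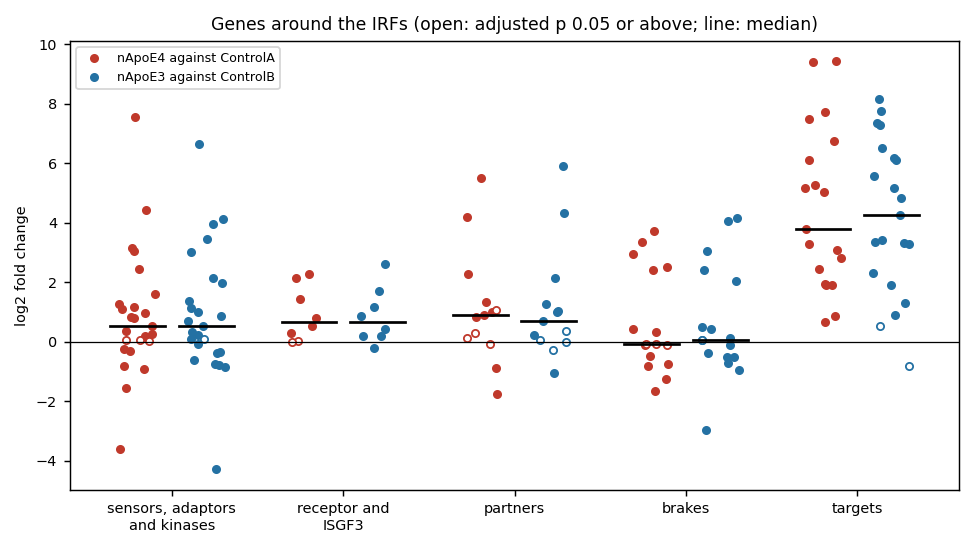
Log2 fold change of each tested gene in 5 lists around the IRFs with nApoE4 (red) and nApoE3 (blue), filled where the adjusted p was under 0.05, with the list median as a line. The tested targets, of which some passed the filter only through the treated samples, had medians of 3.81 and 4.27, and brakes centred near 0, at −0.08 and 0.05.

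The genes whose log2 levels ran closest to each IRF across the 11 samples were named by the root mean square difference after centring, out of 15287 genes. For Irf1 these were Icam1, an adhesion molecule, at 0.158, and Slc2a6, at 0.191, where the median gene was 1.66 away. For Irf7 they were Il1a, at 0.337, and Gm4951, at 0.361, with a median of 2.32. Those nearest to Irf9 were Nfkb2 and Tlr2, at 0.133 and 0.152 (median 1.26), and those nearest to Irf8 were Nek6 and the cell cycle factor gene E2f1, at 0.0585 and 0.0609 (median 0.758). Nfkbie and Pla1a lay nearest to Ifnb1, though further off, at 0.395 and 0.428 (median 1.92). Irf5 was nearest to Nckap1 and Pld3 (0.0737 and 0.0817), Irf2 to Ppm1f and Polr1b (0.0723 and 0.0741), Irf4 to Mmd and Zfp251 (0.128 and 0.134) and Irf3 to Ubxn6 and Cenpv (0.0392 and 0.041). These distances describe 11 samples in 4 groups and carry no test.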

How the data were processed

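The series measured RNA in 11 BV2 samples with single-end reads of 75 bases. Per the submitters' notes and the study's methods, the authors trimmed reads with Trim Galore 0.5.0, checked them with FastQC 0.11.8, mapped them to GRCm38.p6 with HISAT2 2.1.0 and deposited raw HTSeq 0.11.0 counts per gene. The annotation release, strand setting and overlap mode are not given in the sources used here. Reads in several places or genes were left out, which lowers counts of gene copies and overlapping genes. Tallies outside genes were dropped, and 76.0 to 77.7% of tallied reads lay on genes. Samples were grouped by label. Counts were tested in R 4.3.3 with edgeR 4.0.16 (filterByExpr, TMM, quasi-likelihood F test, Benjamini-Hochberg adjustment over all genes, threshold 0.05), each fragment against its own controls, the difference as an interaction over 11 samples. SEs are approximate (log2 change over the root of F). CPM use TMM library sizes, and intervals of pooled ratios cover counting error only. Alternatives included DESeq2 1.42.0, other filters, a replicate block and leaving out each replicate. Scripts were tested on simulated counts. Genes named by rule were the 9 members, the first 6 of each list (5 of the receptor list) and the 2 most alike genes per member. Other genes of the lists, among them Zbp1, Tlr8, Batf2 and Nlrx1, were named after their values were seen. The members and lists were chosen with earlier results of these data known. Some genes of the family and lists are not reported here.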

Additional observations from a re-analysis of the deposited data

Results flagged for a closer look

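For 6 of the 9 genes the change with nApoE4 differed from the change with nApoE3 by the edgeR interaction test, and these are given as nApoE4 minus nApoE3 on the log2 scale. Irf1 differed by 1.26 (adjusted p = 6.52e-07) and Irf4 by 0.91 (adjusted p = 0.0107). Irf7 differed by −1.44 (adjusted p = 0.000133), Irf5 by −0.53 (adjusted p = 0.000103), Irf8 by −0.51 (adjusted p = 0.000124) and Irf2 by −0.49 (adjusted p = 0.00381). The Irf2 call was lost with the replicate number as a block, and the Irf4 call without ApoE3 replicate 1. Across the genome 28.3% of genes tested differed in this way, and a fragment's difference cannot be told apart from that of its experiment.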

How the results depend on the processing

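Of 444 values for single members under alternatives, 422 stayed on their side of the threshold, 14 lost a call, 8 gained one and 0 reversed a call. The sign changed in 9 of the 422, all for Irf3, Irf7 or Irf9 in the interaction or between the controls, where no call was made. Calls of Irf1, Irf7, Irf8, Irf9 and Ifnb1 with each fragment held under every alternative that could be fitted, although a minimum of 10 counts in every sample left Ifnb1 untested and Irf8 with nApoE3, at 1.92-fold, missed a fold threshold of 2. ControlB against ControlA, Irf8 lost its call under 6 alternatives and Irf9 gained one under 6. Asking for a fold change above 2 as well left 4 members with nApoE3, 2 in the interaction and 1 between the controls. It left 11 activators, 3 receptor genes, 7 brakes and 2515 of all genes with nApoE4, 10, 3, 6 and 2397 with nApoE3, and 2551 of all genes between the controls. In the interaction it left 4 activators, 0 receptor genes, 1 partner, 1 brake, 5 targets and 906 of all genes. A minimum of 10 counts in every sample left 12 of 12 targets called with nApoE4 and 12 of 13 with nApoE3. Leaving out 1 replicate moved the brakes called in the interaction between 5 and 10 and the receptor genes between 3 and 6, both lowest without ApoE3 replicate 1. Another size factor method shifted the median of all genes by at most 0.0085. With the union of all exons as length, chosen after seeing the data, Irf1 made up 45.1% of the summed IRF level with nApoE4.

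Same-numbered samples did not deviate together (Pearson's r of −0.172 to −0.0386 in the nApoE4 experiment and −0.0126 and −0.00792 in the other), so the numbers were not taken as pairs. With the replicate number as a block, the interaction called 2307 genes, 5 members and 1 receptor gene, and Irf2 lost its call there (−0.49, edgeR adjusted p = 0.0601).

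The limits are 2 or 3 samples a group, one cell line, one dose and one time, replicates not stated to be separate cultures, and low counts for Ifnb1 and Irf4, for which small changes were not detectable.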
